A study of Mus musculus with 6 samples.

Results

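DNA replication and S-phase genes were examined in the hearts of *Col1a2-/-* mice and of *Col1a2+/-* mice at 2 months of age, 3 hearts per genotype with 1 array per heart. The set was a list of 35 genes, and a gene was measured where the array's table of symbols gave it a probe set, a group of probes summarized as 1 value. This held for 34 of the 35, each with 1 probe set, out of 19505 genes with a symbol and 22206 probe sets tested. For *Mcm7* no probe set carried the symbol, and it was not analysed here. All mice were of the C57/BL6 background. *Col1a2* encodes a chain of type I collagen, and the mutant allele is a germline knockout-first allele made by insertion of a cassette, so that *Col1a2-/-* mice carried it on both chromosomes and the controls on 1, and no wild-type heart was measured. As tissue, whole heart stands in the labels and whole ventricles in the methods, and sex is not among the labels. Hearts are named by their animal numbers, 2767, 2770 and 3200 for *Col1a2-/-* and 2769, 3201 and 3294 for *Col1a2+/-*.

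To copy its genome once per division, a cell first licenses the replication origins, where the origin recognition complex with Cdc6 and Cdt1 loads the ring-shaped MCM helicase. In S phase the helicase is activated by Cdc45 and the GINS complex, primase and the DNA polymerases copy the strands, and the PCNA clamp holds the polymerases on DNA. Many of these genes are transcribed at the end of G1 under E2F transcription factors. In the young adult heart most cardiomyocytes have left the cell cycle, while fibroblasts, endothelial cells and macrophages can still divide.

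All values are log2 signals, as normalized by the authors' array software, and differences are *Col1a2-/-* minus *Col1a2+/-*. *Col1a2* itself measured 6.86, 6.84 and 6.48 in *Col1a2-/-* hearts and 9.47, 9.06 and 9.18 in *Col1a2+/-* hearts, so that its signal matched the genotype labels. The array medians lay between 6.64 and 6.67. The cardiomyocyte marker genes, such as *Myh6* and *Tnnt2*, were above the dim limit in all 6 hearts for 8 of 8 genes. The dim limit, 5.97 on the log2 scale, is the level under which 95% of the 1452 probe sets for receptors of smell, taste and pheromones lay. Heart 3294 stood apart from the other 5, with low Y-linked genes and high atrial markers: *Kdm5d* was at 4.68 there, against 8.84 to 9.42 elsewhere, and *Bmp10* at 13.89, against 3.53 to 5.35. Of the brown adipocyte markers, *Ucp1* was at 8.33 in heart 3294, against 3.60 to 4.30 elsewhere, and *Adipoq* at 7.78, against 5.14 to 5.99. *Cidea* and *Plin1* lay there within the range of the other hearts, and *Fabp4* was lowest there. The counts of genes called in each list are therefore also given without heart 3294.

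A few of the replication genes were higher in *Col1a2-/-* hearts at an unadjusted p, and many others lay close to 0. By limma, 5 of the 34 were higher at an unadjusted p under 0.05, namely *Cdc6*, *Rrm2*, *Prim1*, *Rfc3* and *Lig1*, and 0 were lower. Over all probe sets 2.67% were higher and 2.79% lower by the same limit. None of the 34 passed an adjusted p under 0.05 (lowest adjusted p = 0.872, limma with Benjamini-Hochberg adjustment), as 0.0045% of all probe sets did, and *Col1a2* alone made up that share. In bulk tissue, fewer cells of a type and less RNA per cell cannot be told apart. The median log2 difference of the 34 was 0.02, against 0.00 over all probe sets, with 20 genes above 0, 14 below and 17 within 0.1 of it. Of all probe sets, 49.9% were above 0, and 7724 of 22206 lay within 0.1 of it. In mean signal 23 of the 34 were above the dim limit, and 5 (*Mcm5*, *Gins2*, *Pole*, *Chaf1b* and *E2f1*) were under it in every heart. In 6 of the 34, every *Col1a2-/-* heart was above every *Col1a2+/-* heart, and the reverse held for 0. Over all probe sets these shares were 5.13% and 5.47%. Without heart 3294 the counts were 7 and 1 of the 34, beside 9.92% and 10.2% of all probe sets. In the fit without heart 3294 the count of higher genes was 3 of 34, *Cdc6*, *Prim1* and *Rrm2*, beside 2.58% of all probe sets. The log2 differences of the 5 were then 0.96 (*Cdc6*), 0.63 (*Rrm2*), 0.50 (*Prim1*), 0.43 (*Rfc3*) and 0.49 (*Lig1*). Without *Col1a2-/-* heart 2770, *Cdc6*, *Prim1* and *Rrm2* were higher and *Rfc4* was lower, beside 2.26% and 2.4% of all probe sets. A separation of all hearts gives an exact permutation p of 0.1 for a single gene, two-sided, which is the smallest that 3 hearts against 3 allow.

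**Figure D1:**
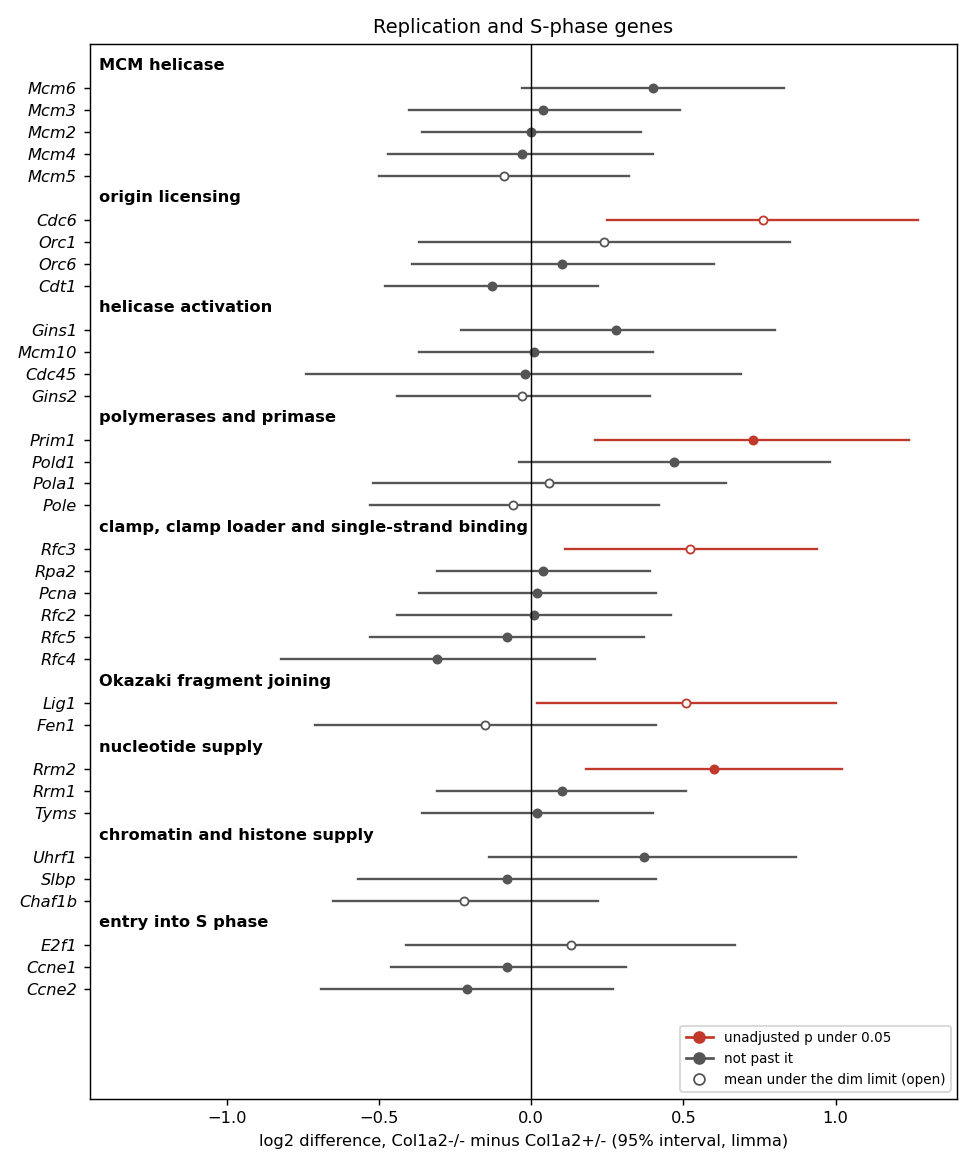
Log2 difference between *Col1a2-/-* and *Col1a2+/-* hearts (x axis) for each of the 34 genes, grouped by role, with 95% intervals from limma and 3 hearts per genotype. The 5 genes past an unadjusted p of 0.05 (red) belong to 5 different roles, and the intervals of the other 29 include 0.

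Genes of origin licensing differed among themselves. *Cdc6*, the ATPase that brings the helicase to origins, measured 6.24, 6.36 and 5.84 in *Col1a2-/-* hearts and 5.21, 5.16 and 5.79 in *Col1a2+/-* hearts. The groups did not overlap, although *Col1a2-/-* heart 3200 and *Col1a2+/-* heart 3294 lay within 0.05 of each other. The means were 6.15 ± 0.27 (SD, n = 3) for *Col1a2-/-* and 5.39 ± 0.35 (SD, n = 3) for *Col1a2+/-*. Its log2 difference was 0.76 (standard error 0.22, 95% interval 0.25 to 1.27, unadjusted p = 0.00818 and adjusted p = 0.872 from limma). All 3 *Col1a2+/-* hearts and *Col1a2-/-* heart 3200 were under the dim limit. Counting from that limit, the *Col1a2-/-* mean puts the change only at 1.13-fold or more, without allowance for the spread between hearts. *Cdt1*, which loads the helicase together with Cdc6, had 6.57, 6.62 and 6.39 in *Col1a2-/-* hearts and 6.66, 6.60 and 6.70 in *Col1a2+/-* hearts. Its hearts overlapped, and the 95% interval of its log2 difference ran from −0.48 to 0.22. *Orc1* and *Orc6*, subunits of the origin recognition complex, had log2 differences of 0.24 and 0.10 and hearts that overlapped. Within this role, *Cdc6* alone passed the unadjusted limit.

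The subunits of the MCM helicase were not separated by genotype, apart from *Mcm6*. *Mcm6* measured 8.87, 8.51 and 8.32 in *Col1a2-/-* hearts and 8.23, 8.26 and 8.0 in *Col1a2+/-* hearts. Every *Col1a2-/-* heart was above every *Col1a2+/-* heart, with a log2 difference of 0.40 (standard error 0.19, unadjusted p = 0.0624 and adjusted p = 0.906 from limma). *Mcm2* had 6.66, 6.73 and 6.90 in *Col1a2-/-* hearts and 6.65, 6.85 and 6.80 in *Col1a2+/-* hearts. *Mcm3* had 6.36, 6.94 and 6.47 in *Col1a2-/-* hearts and 6.48, 6.73 and 6.44 in *Col1a2+/-* hearts. *Mcm4* had 7.41, 7.85 and 7.71 in *Col1a2-/-* hearts and 7.45, 7.93 and 7.69 in *Col1a2+/-* hearts. In these 3 subunits the ranges of the genotypes overlapped broadly. *Mcm5* had 5.54, 5.61 and 5.31 in *Col1a2-/-* hearts and 5.83, 5.45 and 5.45 in *Col1a2+/-* hearts, all under the dim limit. The log2 differences of *Mcm2*, *Mcm3*, *Mcm4* and *Mcm5* lay between −0.09 and 0.04, and their 95% intervals reached no further than −0.50 and 0.49. The products of these genes form 1 ring, yet the RNA of *Mcm6* differed by more between the genotypes than that of its partners, a contrast that was not tested.

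Among the genes that activate the helicase, no member passed. *Gins1*, a subunit of the GINS complex, measured 6.42, 5.90 and 6.21 in *Col1a2-/-* hearts and 5.47, 6.11 and 6.11 in *Col1a2+/-* hearts. The groups overlapped, and *Col1a2+/-* heart 2769 was the lowest. Its log2 difference was 0.28 (unadjusted p = 0.246 from limma). *Gins2*, *Mcm10* and *Cdc45* had log2 differences of −0.03, 0.01 and −0.02. *Cdc45* varied most between hearts of 1 genotype, at 6.77, 5.51 and 6.65 in *Col1a2+/-* hearts, so that its 95% interval ran from −0.74 to 0.69.

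Among the enzymes of DNA synthesis, *Prim1* alone passed. *Prim1* encodes the catalytic subunit of primase, which lays down the RNA primers of both strands. It measured 8.67, 8.27 and 8.44 in *Col1a2-/-* hearts and 7.85, 8.07 and 7.27 in *Col1a2+/-* hearts, with no overlap. The means were 8.46 ± 0.20 (SD, n = 3) for *Col1a2-/-* and 7.73 ± 0.41 (SD, n = 3) for *Col1a2+/-*. Its log2 difference was 0.73 (standard error 0.23, 95% interval 0.21 to 1.24, unadjusted p = 0.0113 and adjusted p = 0.872 from limma), 1.65 times as high. *Pold1*, the catalytic subunit of DNA polymerase δ, had 6.29, 6.31 and 6.95 in *Col1a2-/-* hearts and 6.13, 6.23 and 5.78 in *Col1a2+/-* hearts. Its hearts were separated by a narrow gap, and heart 3200 was well above the rest. The log2 difference was 0.47 (unadjusted p = 0.0669 from limma). *Pola1*, the catalytic subunit of the polymerase that extends the primers, and *Pole*, that of DNA polymerase ε, had log2 differences of 0.06 and −0.06. *Pole* was under the dim limit in all 6 hearts.

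Of the clamp, its loader and the single-strand binding protein, *Rfc3* alone passed. *Rfc3*, a subunit of replication factor C, which opens the clamp and places it on DNA, measured 5.95, 6.35 and 6.30 in *Col1a2-/-* hearts and 5.86, 5.67 and 5.50 in *Col1a2+/-* hearts. The groups did not overlap, with *Col1a2-/-* heart 2767 next to the *Col1a2+/-* hearts. *Rfc3* averaged 6.20 ± 0.22 (SD, n = 3) for *Col1a2-/-* and 5.68 ± 0.18 (SD, n = 3) for *Col1a2+/-*. The log2 difference was 0.52 (standard error 0.18, 95% interval 0.11 to 0.94, unadjusted p = 0.0185 and adjusted p = 0.879 from limma). All *Col1a2+/-* hearts and *Col1a2-/-* heart 2767 were under the dim limit. Counting from that limit, the *Col1a2-/-* mean puts the change at 1.17-fold or more, without allowance for the spread between hearts. Other subunits of the same loader did not pass: *Rfc2*, *Rfc4* and *Rfc5* had log2 differences of 0.01, −0.31 and −0.08. *Rfc4* was lowest in *Col1a2-/-* hearts 2767 and 3200, at 8.02 and 8.24, and the remaining *Col1a2-/-* heart, at 8.82, was within the *Col1a2+/-* range of 8.51 to 8.88. *Pcna*, the clamp itself and a common marker of dividing cells, had 13.41, 13.12 and 13.43 in *Col1a2-/-* hearts and 13.17, 13.27 and 13.47 in *Col1a2+/-* hearts. These ranges overlapped, and the 95% interval of its log2 difference of 0.02 ran from −0.37 to 0.41. *Rpa2*, a subunit of the single-strand binding protein RPA, had a log2 difference of 0.04.

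*Lig1* and *Fen1*, which join and trim the fragments of the lagging strand, were dim. *Lig1* measured 5.99, 5.85 and 5.61 in *Col1a2-/-* hearts and 5.69, 4.96 and 5.25 in *Col1a2+/-* hearts. Its groups overlapped by 1 heart on each side, and 1 of the 6 hearts exceeded the dim limit. The log2 difference was 0.51 (standard error 0.22, 95% interval 0.02 to 1.00, unadjusted p = 0.0424 and adjusted p = 0.906 from limma), and no fold is given since both means were under that limit. *Fen1* had a log2 difference of −0.15 and hearts that overlapped.

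Among genes of nucleotide supply, *Rrm2* was higher and its partners were close to 0. *Rrm2* encodes the small, cell-cycle-regulated subunit of ribonucleotide reductase, the enzyme that makes deoxyribonucleotides. It measured 8.03, 8.02 and 8.17 in *Col1a2-/-* hearts and 7.17, 7.72 and 7.53 in *Col1a2+/-* hearts, with no overlap and little spread in *Col1a2-/-* hearts. *Rrm2* averaged 8.07 ± 0.08 (SD, n = 3) for *Col1a2-/-* and 7.47 ± 0.28 (SD, n = 3) for *Col1a2+/-*. The log2 difference was 0.60 (standard error 0.18, 95% interval 0.18 to 1.02, unadjusted p = 0.00991 and adjusted p = 0.872 from limma), 1.52 times as high. *Rrm1*, the large subunit of the same enzyme, had 8.96, 9.01 and 9.15 in *Col1a2-/-* hearts and 8.66, 9.01 and 9.16 in *Col1a2+/-* hearts. Its hearts overlapped, with a log2 difference of 0.10. *Tyms*, thymidylate synthase, had a log2 difference of 0.02.

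Genes of chromatin copying and of entry into S phase did not pass. *Uhrf1*, which guides maintenance of DNA methylation behind the fork, measured 7.68, 7.17 and 6.87 in *Col1a2-/-* hearts and 7.01, 6.72 and 6.88 in *Col1a2+/-* hearts. Its difference of 0.37 (unadjusted p = 0.134 from limma) was 0.15 without heart 2767. *Slbp*, which binds the stem-loop of histone mRNA, and *Chaf1b*, a subunit of the histone chaperone CAF-1, had log2 differences of −0.08 and −0.22. *Ccne2*, a cyclin E that activates Cdk2 before S phase, had 6.28, 6.06 and 6.29 in *Col1a2-/-* hearts and 5.99, 6.54 and 6.72 in *Col1a2+/-* hearts. The groups overlapped, with a log2 difference of −0.21 (unadjusted p = 0.354 from limma). *Ccne1* and *E2f1*, the other cyclin E and the transcription factor, had log2 differences of −0.08 and 0.13, and *E2f1* was under the dim limit in all 6 hearts.

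**Figure D2:**
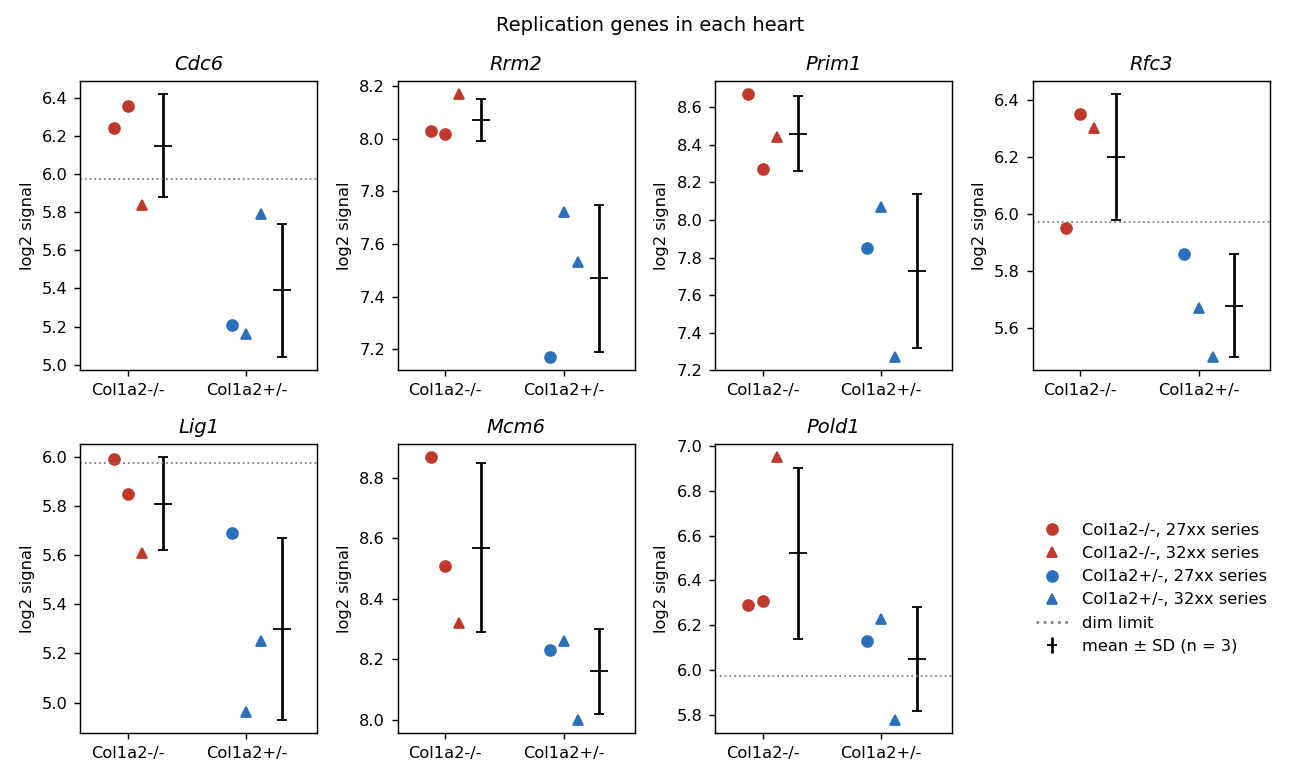
Log2 signal (y axis) of the 7 genes that passed an unadjusted p of 0.05 or whose hearts did not overlap, in *Col1a2-/-* (red, left) and *Col1a2+/-* hearts (blue, right). Symbols give the series of animal numbers, black bars the mean ± SD of 3 hearts, and the dotted line the dim limit. *Lig1* is the gene among them whose groups overlap.

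Because E2F factors are known regulators of replication genes, the promoters of the genes were searched, on both strands, for 4 E2F-type words, TTTCCCGC, TTTGGCGC, TTTGCCGC and TTTCGCGC, and for the CCAAT word of the factor NF-Y. Promoters were the 300 bases around a transcription start in RefSeq (build GRCm38.p6), and 28 of the 34 genes had at least 1. An E2F-type word was present in 11 of the 28 genes (39.3%), against 2.60% of 27025 genes, and CCAAT in 17 of 28 (60.7%), against 41.1%. Of the 5 genes with a higher signal, 3 had an E2F-type word (*Cdc6*, *Lig1* and *Rfc3*), and so did 8 of the other 23. A gene was counted if any of its starts had the word, and *Lig1* had it at only 1 of several starts. The words were thus present in genes past the unadjusted limit and in genes not past it. A match is a description and not a shown binding site. The promoters of 4 of the higher genes (all but *Lig1*) and of the helicase subunits *Mcm6* and *Mcm5* are given. Both subunits have E2F-type words and neither passed the unadjusted limit, and *Mcm5* was under the dim limit in every heart. The promoters are written 5′ to 3′ on the strand of the gene. They lie at chr11:98907901-98908200 (*Cdc6*, plus strand), chr5:151651159-151651458 (*Rfc3*, minus strand), chr10:128014965-128015264 (*Prim1*, plus strand), chr12:24708004-24708303 (*Rrm2*, plus strand), chr1:128359656-128359955 (*Mcm6*, minus strand) and chr8:75109259-75109558 (*Mcm5*, plus strand). Capitals mark E2F-type words and CCAAT in either orientation, and in *Mcm6* and *Mcm5* a pair of E2F-type words on opposite strands overlaps.
*Cdc6*: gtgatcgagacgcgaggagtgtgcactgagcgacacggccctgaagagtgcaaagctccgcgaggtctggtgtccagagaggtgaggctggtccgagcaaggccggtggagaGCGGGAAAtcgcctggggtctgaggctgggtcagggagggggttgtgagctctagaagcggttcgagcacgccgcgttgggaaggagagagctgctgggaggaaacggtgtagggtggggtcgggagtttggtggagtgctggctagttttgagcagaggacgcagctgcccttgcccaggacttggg
*Rfc3*: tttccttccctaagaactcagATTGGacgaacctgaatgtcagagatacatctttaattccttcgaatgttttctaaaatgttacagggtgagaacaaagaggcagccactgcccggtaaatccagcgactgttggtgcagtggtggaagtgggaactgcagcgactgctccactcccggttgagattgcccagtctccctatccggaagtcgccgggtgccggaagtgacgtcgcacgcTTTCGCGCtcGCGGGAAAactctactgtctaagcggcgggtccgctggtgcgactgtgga
*Prim1*: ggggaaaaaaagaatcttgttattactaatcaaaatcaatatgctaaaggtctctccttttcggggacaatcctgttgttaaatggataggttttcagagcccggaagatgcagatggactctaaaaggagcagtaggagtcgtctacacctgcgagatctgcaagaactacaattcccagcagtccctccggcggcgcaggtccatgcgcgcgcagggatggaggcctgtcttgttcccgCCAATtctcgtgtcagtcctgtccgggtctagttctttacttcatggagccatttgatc
*Rrm2*: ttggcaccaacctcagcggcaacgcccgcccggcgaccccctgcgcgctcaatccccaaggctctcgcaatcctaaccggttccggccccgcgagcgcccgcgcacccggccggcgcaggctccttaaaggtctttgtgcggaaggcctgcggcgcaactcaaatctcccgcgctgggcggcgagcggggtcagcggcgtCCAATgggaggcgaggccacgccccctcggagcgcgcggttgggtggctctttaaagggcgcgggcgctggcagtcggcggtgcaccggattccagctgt
*Mcm6*: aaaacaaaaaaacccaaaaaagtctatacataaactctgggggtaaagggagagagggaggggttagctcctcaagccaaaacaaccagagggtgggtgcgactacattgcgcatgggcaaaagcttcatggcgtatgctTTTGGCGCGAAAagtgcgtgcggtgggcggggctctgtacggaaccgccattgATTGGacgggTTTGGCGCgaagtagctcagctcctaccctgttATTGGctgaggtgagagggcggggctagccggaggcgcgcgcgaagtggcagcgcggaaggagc
*Mcm5*: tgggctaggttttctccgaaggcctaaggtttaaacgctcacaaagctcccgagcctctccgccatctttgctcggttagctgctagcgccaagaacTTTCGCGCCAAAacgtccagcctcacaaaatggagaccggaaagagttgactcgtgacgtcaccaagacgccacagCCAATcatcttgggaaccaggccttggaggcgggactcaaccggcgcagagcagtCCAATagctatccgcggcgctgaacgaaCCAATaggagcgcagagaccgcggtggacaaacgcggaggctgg
*Cdc6* holds 1 E2F-type word, TTTCCCGC on the minus strand, and no CCAAT. *Rfc3* holds 2 around its start and a distant CCAAT, *Mcm6* holds 3 and 2 CCAAT, and *Mcm5* holds 2 and 3 CCAAT. *Prim1* and *Rrm2*, both among the higher genes, hold 1 CCAAT each and no E2F-type word in this window. The log2 difference of *Mcm5* was −0.09, from signals under the dim limit in every heart. Whether the words bear on the differences was not tested.

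Across hearts, the 34 genes did not move as a block. The median over the genes of the log2 signal minus the gene's own mean was −0.01, 0.05 and 0.04 in *Col1a2-/-* hearts 2767, 2770 and 3200, and −0.07, 0.02 and −0.08 in *Col1a2+/-* hearts 2769, 3201 and 3294. These medians overlapped between the genotypes. Heart 2767 was the highest of the 6 for 7 genes and the lowest for 6, and heart 3294 was the highest for 8 and the lowest for 8. No heart was thus high or low across the set.

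**Figure D3:**
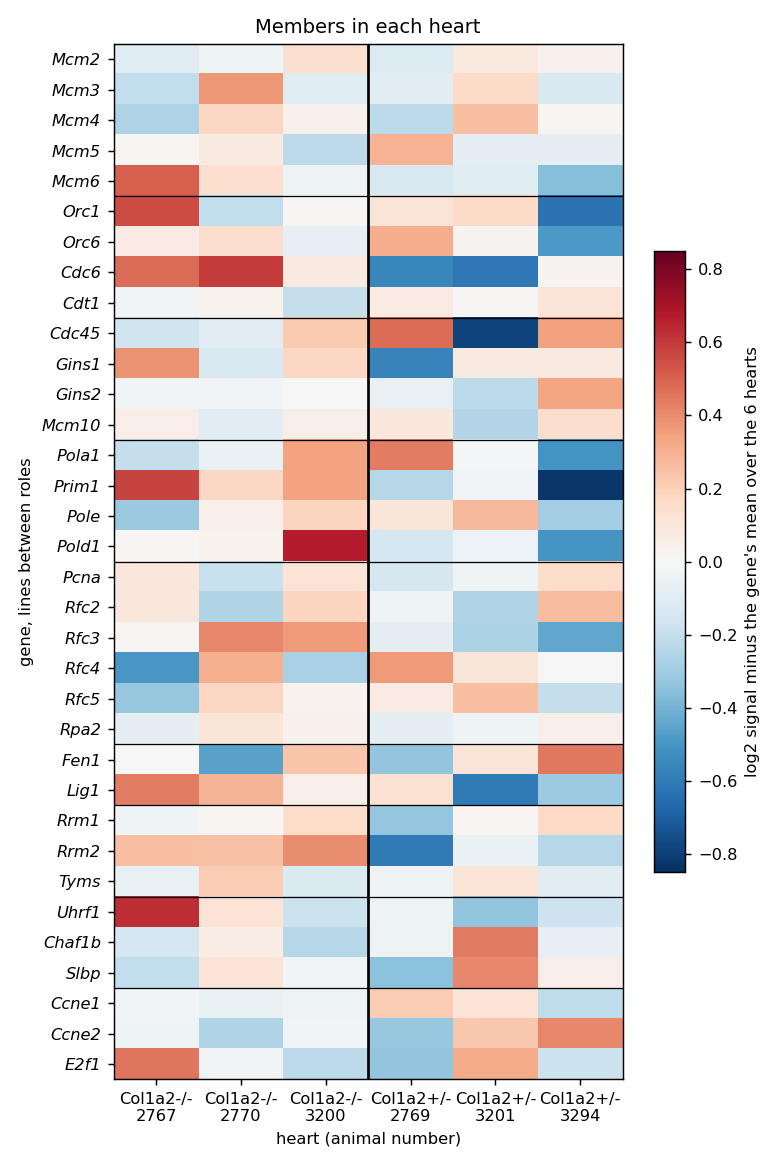
Log2 signal minus the mean over the 6 hearts, in colour, for the 34 genes (rows, with lines between roles) in *Col1a2-/-* hearts (left) and *Col1a2+/-* hearts (right). *Cdc6*, *Prim1* and *Rrm2* are red or pale in *Col1a2-/-* hearts and blue or pale in *Col1a2+/-* hearts, with *Cdc6* pale in heart 3200. Most rows mix both colours within a genotype.

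The animal numbers fall into 2 series, 2767, 2769 and 2770 in one and 3200, 3201 and 3294 in the other, and no source says what the series are. Within the series, the log2 difference was 1.09 and 0.37 for *Cdc6*, 0.86 and 0.54 for *Rrm2*, and 0.62 and 0.76 for *Prim1*. It was 0.29 and 0.71 for *Rfc3* and 0.22 and 0.50 for *Lig1*. All 5 genes were higher in *Col1a2-/-* hearts in both series, with the larger value of *Cdc6* in the first series and that of *Rfc3* in the second. The series are parts of the same 6 hearts by which the 5 genes were picked, so this is not an independent check. With the series as a block, *Pold1* passed (log2 difference 0.56, unadjusted p = 0.0434 from limma) and *Lig1* did not (0.36, unadjusted p = 0.0836). When each heart was left out in turn, *Cdc6*, *Prim1* and *Rrm2* passed in 6 of 6 fits, with log2 differences of 0.64 to 0.96, 0.50 to 0.89 and 0.45 to 0.72. These fits reuse hearts by which the 5 genes were picked, so they are not independent checks either. The lowest adjusted p of the 34 genes in them was 0.712 to 0.993 by limma. *Rfc3* passed in 3 of the 6 and was lost without *Col1a2-/-* hearts 2770 or 3200 or *Col1a2+/-* heart 3294. *Lig1* passed in 2 of the 6, those without *Col1a2-/-* heart 3200 or *Col1a2+/-* heart 2769.

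**Figure D4:**
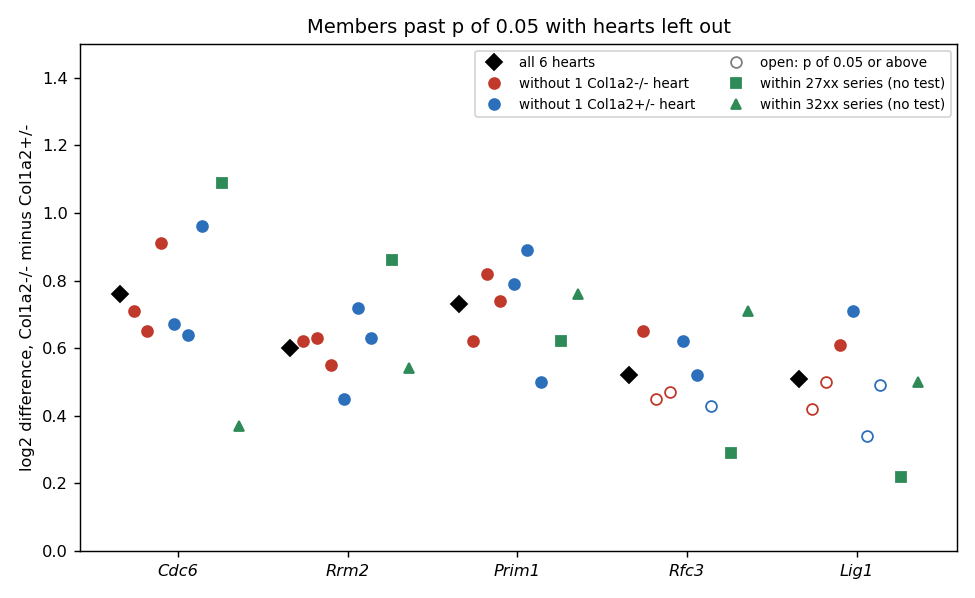
Log2 difference (y axis) of the 5 genes past an unadjusted p of 0.05 with all 6 hearts (diamonds), without each *Col1a2-/-* heart (red) or *Col1a2+/-* heart (blue), and within each series of animal numbers (green). Filled circles passed p of 0.05, which *Cdc6*, *Rrm2* and *Prim1* did whichever heart was left out. The 5 genes were picked by the fit with all 6 hearts.

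Replication genes outside the set, regulators of the G1/S transition and mitosis genes were counted in the same fit. Of 58 other replication genes measured of 61 listed, 2 were higher (3.45%, beside 2.67% of all probe sets), 0 were lower (beside 2.79%) and the median log2 difference was 0.04. Without heart 3294, 0 of them were higher, beside 2.58% of all probe sets. The 2 were *Recql4*, a helicase of origin firing, at 5.07, 5.18 and 5.12 in *Col1a2-/-* hearts and 4.82, 4.71 and 4.29 in *Col1a2+/-* hearts, and *Fam111a*, a PCNA-binding protease, with a log2 difference of 0.51. *Recql4* did not overlap between the genotypes but was under the dim limit. *Hells*, a chromatin remodeler, and *Chtf8*, a subunit of an alternative clamp loader, had the next smallest p, with log2 differences of 0.60 and −0.35 and unadjusted p of 0.0570 and 0.0669 from limma. Of 36 regulators of the G1/S transition, 2 were higher (5.56%, beside the same 2.67%), 0 were lower and the median was 0.14. Without heart 3294, 1 was higher, beside 2.58% of all probe sets. The count ran from 0 without *Col1a2+/-* heart 3201 to 5 without *Col1a2-/-* heart 3200, beside 2.65% and 2.67%. The 2 higher with all 6 hearts were *Fbxo5*, an inhibitor of the anaphase-promoting complex, and *Cdkn2c*, an inhibitor of Cdk4 and Cdk6. Their log2 differences were 0.77 and 0.45, and the hearts of *Fbxo5* overlapped between the genotypes. *Ccnd2*, a D cyclin, and *Lin54*, a DNA-binding subunit of the DREAM complex, had 0.42 and 0.37 and did not pass. Of 57 mitosis genes, 16 were higher (28.1%, beside 2.67%), 0 were lower and the median was 0.35, whereas the replication genes had 5 of 34 and 0.02. Without heart 3294, 14 mitosis genes were higher, and 9 without *Col1a2-/-* heart 2770, beside 2.58% and 2.26% of all probe sets. The smallest p in that list were those of *Bub1b*, *Anln*, *Nek2* and *Ncaph*, with log2 differences of 1.31, 0.92, 1.26 and 0.78, and adjusted p from 0.814 to 0.870 by limma. Their signals were dim: the means of *Col1a2+/-* hearts were under the dim limit for all 4, and *Nek2* and *Ncaph* exceeded it in 1 of 6 hearts. Counting from that limit, the *Col1a2-/-* mean puts *Bub1b* only at 1.16-fold or more, again without allowance for the spread between hearts. The proliferation marker gene *Mki67* had 9.10, 8.53 and 8.05 in *Col1a2-/-* hearts and 8.30, 7.37 and 7.60 in *Col1a2+/-* hearts. It was among the 16, with a log2 difference of 0.80 (unadjusted p = 0.0308 from limma) and hearts that overlapped. *Top2a*, a topoisomerase of S and G2 phase, had a log2 difference of −0.37 (unadjusted p = 0.0965 from limma). The difference between the lists was not tested, since genes of a list are not independent of each other.

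**Figure D5:**
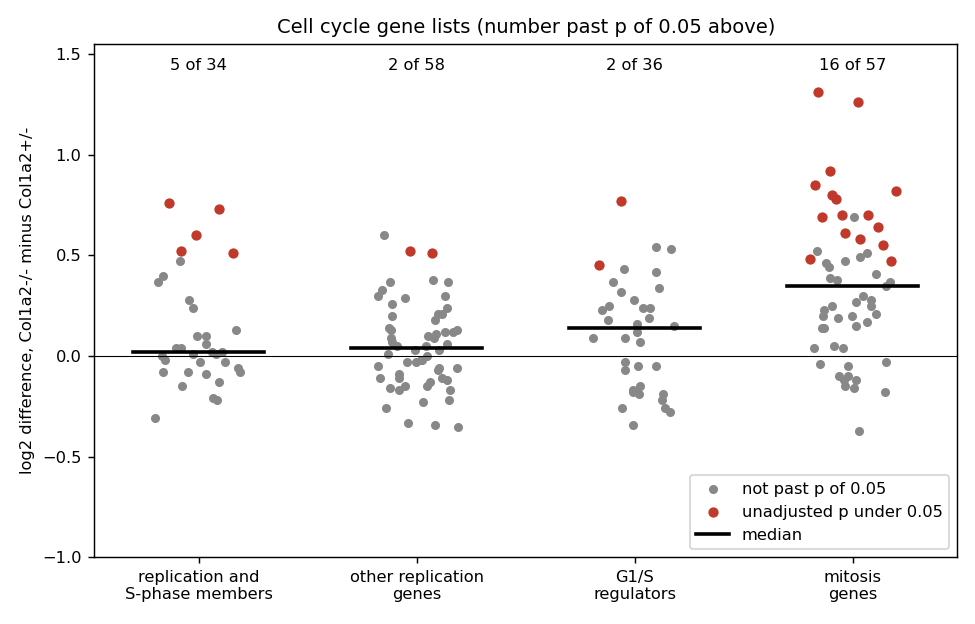
Log2 difference between *Col1a2-/-* and *Col1a2+/-* hearts (y axis) for each gene of 4 lists, with the median as a bar, genes past an unadjusted p of 0.05 in red and their number above. The median is 0.02 for the replication and S-phase genes, 0.04 for other replication genes, 0.14 for G1/S regulators and 0.35 for mitosis genes.

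Markers of cell types that can divide in the heart were measured in the same hearts, each list by the log2 of its summed signal and by the median deviation of its genes from their own means. The sum is taken on the linear scale and so follows mainly the brightest genes of a list. These were *Lyz2* and *Mrc1* for macrophages (mean log2 signals 12.77 and 12.12) and *Dcn* and *Gsn* for fibroblasts (17.28 and 16.34). Of 7 macrophage markers, 1 was higher at an unadjusted p under 0.05, *C1qa*, beside 2.67% of all probe sets. Without heart 3294 the count was 0, beside 2.58%. All 7 macrophage markers had differences above 0. Their summed level was 13.98 to 14.08 in *Col1a2-/-* hearts and 13.60 to 13.93 in *Col1a2+/-* hearts, which did not overlap. Their median deviations did overlap, at 0.07, −0.03 and 0.18 in *Col1a2-/-* hearts and 0.04, −0.15 and −0.21 in *Col1a2+/-* hearts. Of 5 endothelial markers, 0 passed and 4 had differences above 0. Their summed level overlapped, at 15.44 to 15.73 in *Col1a2-/-* hearts and 15.19 to 15.56 in *Col1a2+/-* hearts. Their median deviations did not overlap, at 0.25, 0.18 and 0.03 in *Col1a2-/-* hearts and −0.09, −0.18 and −0.16 in *Col1a2+/-* hearts. Of 7 fibroblast markers, 1 was higher, *Col3a1*, beside 2.67% of all probe sets, and 0 without heart 3294, beside 2.58%. Their summed level was 17.94 to 18.03 in *Col1a2-/-* hearts and 18.03 to 18.19 in *Col1a2+/-* hearts. Their median deviations were 0.09, −0.03 and 0.04 in *Col1a2-/-* hearts and −0.03, −0.16 and −0.03 in *Col1a2+/-* hearts. The fibroblast measures thus leaned in opposite directions, and on each the genotypes met at 1 rounded value. All genes of these 3 lists were above the dim limit in every heart. Macrophage and endothelial markers were thus each separated by genotype on 1 of the 2 measures, a different one for each, and not on the other. Among single probe sets of the whole array, 5.13% were separated with *Col1a2-/-* hearts higher and 5.47% with them lower. The part of these cell types in the differences of *Cdc6*, *Rrm2*, *Prim1* and *Rfc3* was not tested. Of 7 lymphocyte markers, 1 had a mean above the dim limit.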

How the data were processed

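Total RNA of 6 hearts was hybridized to Affymetrix Clariom S Mouse arrays. The authors deposited 1 log2 signal for each probe set and heart, normalized and summarized beforehand. Affymetrix Expression Console is named in the submitters' processing notes and Transcriptome Analysis Console in the methods, and version and normalization are not given in the sources used here. Groups came from the genotype labels. Of 28846 entries, 6640 controls were left out. Where a gene had several probe sets, the brightest was used.

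Genotypes were compared with limma 3.58.1 in R 4.3.3 (lmFit and eBayes, no covariates, 4 residual degrees of freedom), with Benjamini-Hochberg adjustment over 22206 probe sets. The code was tested on simulated data. The limma p-values set each difference against the spread between hearts, drawn by eBayes toward the spread typical of all probe sets. The number of arrays limits the precision. A bound on a fold change sets the measured mean of the brighter genotype against the dim limit, where every heart of the other genotype was under that limit. Such a bound makes no allowance for the spread between hearts. Symbols and promoters came from the platform table and RefSeq.

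By the naming rule, any gene of the set could be named, with values per heart for genes with an unadjusted p under 0.05, for those without overlap, for the MCM2-7 subunits and for the smallest p of each role. Of the other lists, up to 4 genes with the smallest p were named, with *Mki67* and *Top2a*. The set and the lists were chosen with earlier results of these data known, and the promoter words after the values were seen. Other genes named for their differences, *Rfc4*, *Cdt1*, *Cdc45*, *Pcna* and *Rrm1* among them, are members given in full after their values were seen. *Kdm5d*, *Bmp10*, *C1qa* and *Col3a1* were also named after their values were seen. So were the brown adipocyte markers and *Lyz2*, *Mrc1*, *Dcn* and *Gsn*. Alternatives were quantile normalization, centring, a filter on dim probe sets, another variance prior, Student's t-test (which the methods name for comparisons of 2 groups in general, and not for the arrays), array weights, a block for the animal-number series, the mean of all probe sets of a gene, and leaving out each heart. The counts of the other lists with each heart left out were added after seeing the data.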

Additional observations from a re-analysis of the deposited data

How the results depend on the processing

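The count of 5 higher genes was 3 with Student's t-test (beside 2.46% of all probe sets), in which *Prim1* and *Lig1* no longer passed. It was 3 of the 23 genes above the dim limit when dim probe sets were filtered out, beside 2.96% of the probe sets kept. With the filter these were *Prim1*, *Rrm2* and *Mcm6*, since the filter removes *Cdc6*, *Rfc3* and *Lig1*. Leaving out each heart gave 3 to 6 higher genes, 3 without *Col1a2+/-* heart 3294 or *Col1a2-/-* heart 2770, and 0 to 1 lower, *Rfc4* without heart 2770. In these fits 2.26% to 3.08% of all probe sets were higher and 2.4% to 3.33% lower. The median log2 difference was −0.01 to 0.07 with 1 heart left out, highest without *Col1a2+/-* heart 3201, and 0.02 to 0.04 otherwise. No gene of the set passed an adjusted p under 0.05 in any of these fits. Counts and medians under the other alternatives stayed within 1.5 times of the main count or within the spread between hearts. Of the 5 higher genes, none changed direction in any alternative, and *Rrm2* passed in all 14, as did *Cdc6* wherever the filter kept it. All the alternatives use hearts by which the 5 genes were picked. *Mcm6* passed with the dim filter (unadjusted p = 0.0492 from limma) and without heart 3200, *Pold1* with the series as a block and without heart 2767, and *Uhrf1* without heart 3200. The causes were not tested. Dim signals limit what can be said of *Cdc6*, *Rfc3* and *Lig1*. Genotypes share no replicate number in the labels, and which hearts were littermates is not given there, so hearts were not paired 1 to 1. A block for the animal-number series gave 5 higher genes, 4 of them among the 5, beside 2.4% of all probe sets.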
